A study of Mus musculus with 8 samples.

Results

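The 42 mouse genes described here code for the machinery that copies DNA: the proteins that license replication origins, the replicative helicase, the DNA polymerases, the sliding clamp and its loader, the enzymes that finish the lagging strand and supply nucleotides, and the factors that switch these genes on and pack new DNA into chromatin. The rule that picks them uses gene symbols only and no measured value, but the list was made with earlier results of these data known. Each was found once among the 55414 gene identifiers of a read count table after the version suffix was removed, and all 42 were among the 16304 genes with enough counts to test. The cells were iBMDM, an immortalized line of macrophages from mouse bone marrow, labelled wild type. Disulfiram (DSF), a drug long used against alcohol dependence, was tested for its effect on signalling by TLR4, the receptor for bacterial lipopolysaccharide (LPS).

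Messenger RNA was sequenced from 8 libraries in 4 groups of 2. The control group received the solvent DMSO for 0.5 h and then water for 4 h, the DSF group 5 μM DSF and then water, the LPS group DMSO and then 1 μg/ml LPS, and the DSF+LPS group 5 μM DSF and then 1 μg/ml LPS, each for the same times. All 4 groups therefore come from 1 immortalized line. The labels do not say whether the replicates of a group were separate cultures, so that the p-values speak only of the spread among these libraries, which may be technical. Levels are in CPM, read counts relative to the scaled size of their library, and differences are log2 fold changes with an approximate standard error (SE). Rises and falls are named as such where the adjusted p of edgeR's quasi-likelihood test was under 0.05.

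Each S phase starts from origins that were licensed beforehand. The origin recognition complex, Cdc6 and Cdt1 load the MCM2-7 ring onto DNA, and Mcm10, Cdc45 and the GINS complex then turn the ring into the active CMG helicase. Behind it, primase and DNA polymerase alpha lay primers, polymerases epsilon and delta extend them, PCNA holds the polymerases on DNA, and Fen1 and Lig1 join the lagging-strand fragments. Many of these genes are targets of the E2F transcription factors. Cyclin E and its kinase help to release E2F from the pocket proteins at the passage from G1 to S phase. Immortalized macrophages divide in culture, so bulk RNA from them holds transcripts of replicating cells. In such samples fewer cells in S phase and less RNA per cell cannot be told apart.

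Library totals ran from 17822041 to 21694922 counts. Between 19779 and 20324 genes had at least 1 count in the 4 libraries without DSF and between 23416 and 25081 in the 4 with it, and the part of this difference in the results below was not tested. Known response genes moved with their agent. Tnf, an inflammatory cytokine, rose 22.4-fold with LPS, and Hmox1, a stress-response enzyme, rose 35.1-fold with DSF. Marker sums are given in CPM of the library size alone, without scaling. The 10 macrophage markers all had counts in every library, with summed levels of 2322 to 3074 CPM. Mertk, the lowest of them, stood at only 0.540 to 2.37 scaled CPM, below the endothelial marker Kdr (5.18 to 11.3). Markers of other cell types summed to at most 0.876 CPM for neutrophils (6 listed), 2.77 for dendritic cells (6), 2.71 for lymphocytes (6), 1.80 for fibroblasts (5) and 13.9 for epithelial and endothelial cells (7). S100a9, Cd3e and Cd3g were at 0 in every library. Summed over the 42 replication genes, levels were 4760 and 4731 CPM in control, 3926 and 3809 after LPS, 3816 and 3910 after DSF, and 4101 and 3963 after both agents. Every treated library was thus below both controls.

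Some of these genes share a letter pattern in their promoters. The RefSeq promoter table (build GRCm38.p6, an older build than the GRCm39 named for these data) held windows from 250 bases before to 50 bases after the start for 34 of the 42 genes, in 39 entries. A core letter pattern of E2F binding was searched on both strands as TTTCCCGC, TTTCGCGC, TTTGCCGC or TTTGGCGC, and matches may overlap one another. It stood in 14 of the 39 entries, or 35.9% (exact Clopper-Pearson 95% interval 21.2 to 52.8%), and in 744 of the 32851 promoters of the table, or 2.26%. The interval treats the entries as independent draws. They come from 34 genes of a chosen list, so it does not measure a sampling spread. A match is a description of letters, not evidence of binding. The 14 genes were Orc1, Cdc6, Cdt1, Mcm3, Mcm5, Mcm6, Mcm7, Gins3, Pola1, Pold1, Pold3, Pole2, Rfc3 and Lig1. The runs that follow, 5′ to 3′ on the strand of the gene, are 100 bases each from 6 of these genes whose levels are described later, with the matching letters in capitals. They come from a licensing factor, helicase subunits, a GINS subunit, the only origin recognition gene that rose between the drug-treated groups, and a polymerase gene that was not called with LPS alone. Cdc6 is read from chr11:98907986-98908085 on the plus strand, with the match 138 to 131 bases before the start. Mcm5 is read from chr8:75109319-75109418 on the plus strand, and its run of capitals holds a pair of overlapping matches on opposite strands. Mcm7 is read from chr5:138171984-138172083 on the minus strand, and Gins3 from chr8:95633459-95633558 on the plus strand. Orc1 is read from chr4:108579354-108579453 on the plus strand, and Pola1 from chrX:93632231-93632330 on the minus strand.
Cdc6: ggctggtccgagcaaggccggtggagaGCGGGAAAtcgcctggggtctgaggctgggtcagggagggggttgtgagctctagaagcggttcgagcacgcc
Mcm5: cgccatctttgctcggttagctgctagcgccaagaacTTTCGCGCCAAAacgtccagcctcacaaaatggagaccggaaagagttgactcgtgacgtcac
Mcm7: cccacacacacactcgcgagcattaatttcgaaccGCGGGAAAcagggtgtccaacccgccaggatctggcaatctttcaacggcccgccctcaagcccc
Gins3: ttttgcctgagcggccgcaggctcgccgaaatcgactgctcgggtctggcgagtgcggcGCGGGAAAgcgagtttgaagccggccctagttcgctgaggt
Orc1: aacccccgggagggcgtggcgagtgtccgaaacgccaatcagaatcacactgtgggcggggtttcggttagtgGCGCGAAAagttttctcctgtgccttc
Pola1: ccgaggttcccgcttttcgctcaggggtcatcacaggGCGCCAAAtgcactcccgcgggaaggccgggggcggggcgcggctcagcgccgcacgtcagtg
All 6 runs were picked to hold letters upstream of the annotated start, so their position is not a result. In Cdt1, Lig1, Mcm3, Pold1, Pold3 and Pole2 the letters stood only after the start. Mcm7 had another match there, at transcribed bases 17 to 24. Cdc6, Mcm7 and Gins3 carry the same 8 letters, GCGGGAAA, read on the strand of the gene.

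Most replication genes were lower after LPS alone. Of the 42, 26 fell and 2 rose, while 13.8% of all 16304 genes tested fell and 15.2% rose. The median log2 fold change was −0.36 over the 42 genes and 0.02 over all genes. No fall reached 2-fold: the deepest were those of Tk1 (−0.99), Ccne1 (−0.88), Gins3 (−0.78) and Cdc6 (−0.77). Of the 26 falls, 17 were called in each of the 4 fits that left out 1 library. Neither rise was: Mcm10 lost its call without LPS replicate 1 (adjusted p = 0.0512), and Pola2 without LPS replicate 1 or control replicate 2, its adjusted p reaching 0.127. Scaled by library size alone, which moved the median of all genes by −0.14 and the share of called genes that rose from 52.5% to 30.0%, 34 replication genes fell and none of the 42 rose, 1 of them having risen at an unadjusted p under 0.05; DESeq2 called 2 rises and 25 falls.

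After DSF alone most were lower too, over a wider range (−1.32 to 0.69 against −0.99 to 0.32 on the log2 scale), and 4 were higher. Of the 42, 25 fell and 4 rose, while 27.1% of all genes fell and 31% rose. The median log2 fold change was −0.32 over the 42 genes and 0.05 over all genes. Chaf1a, Ccne1 and Rrm1 fell by 2-fold or more. The genes that rose were Cdt1, Mcm10, Cdc45 and Gins3, which act in licensing and in building the helicase. In the 4 fits without 1 library, 21 of the 25 falls and the rises of Cdt1 and Mcm10 were called each time. Scaled by library size alone, which moved the median of all genes by −0.10, 32 fell and 3 rose. This comparison and that of LPS share the control libraries.

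Set against LPS alone, DSF before LPS came with calls in both directions. Of the 42, 16 fell and 12 rose, while 31.6% of all genes fell and 33.7% rose, so that neither count stands far from the whole transcriptome. The median log2 fold change was −0.07 over the 42 genes and 0.04 over all genes. It was −0.14 over the 42 genes without DSF+LPS replicate 1, where 18 fell and 12 rose, and 0.02 without DSF+LPS replicate 2, where 14 fell and 17 rose. By role, of the 9 primase and polymerase genes 7 fell and 1 rose, and of the 6 genes of helicase assembly 4 rose. No library is shared with the comparison of DSF and control. How many of all genes were called alike in both was not counted, so the overlap is not read as particular to these genes. Among the 42, 15 genes fell in both (of 25 there and 16 here), and the 4 that rose there rose here too (of 12). Another 3 that fell there rose here (Gins2, Pold1 and Rfc2). Of these 3, Gins2 and Rfc2 lost their fall without control replicate 1 or either DSF library (adjusted p up to 0.28), and Gins2 and Pold1 their rise without LPS replicate 2 (0.0851 and 0.0826).

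**Figure D1:**
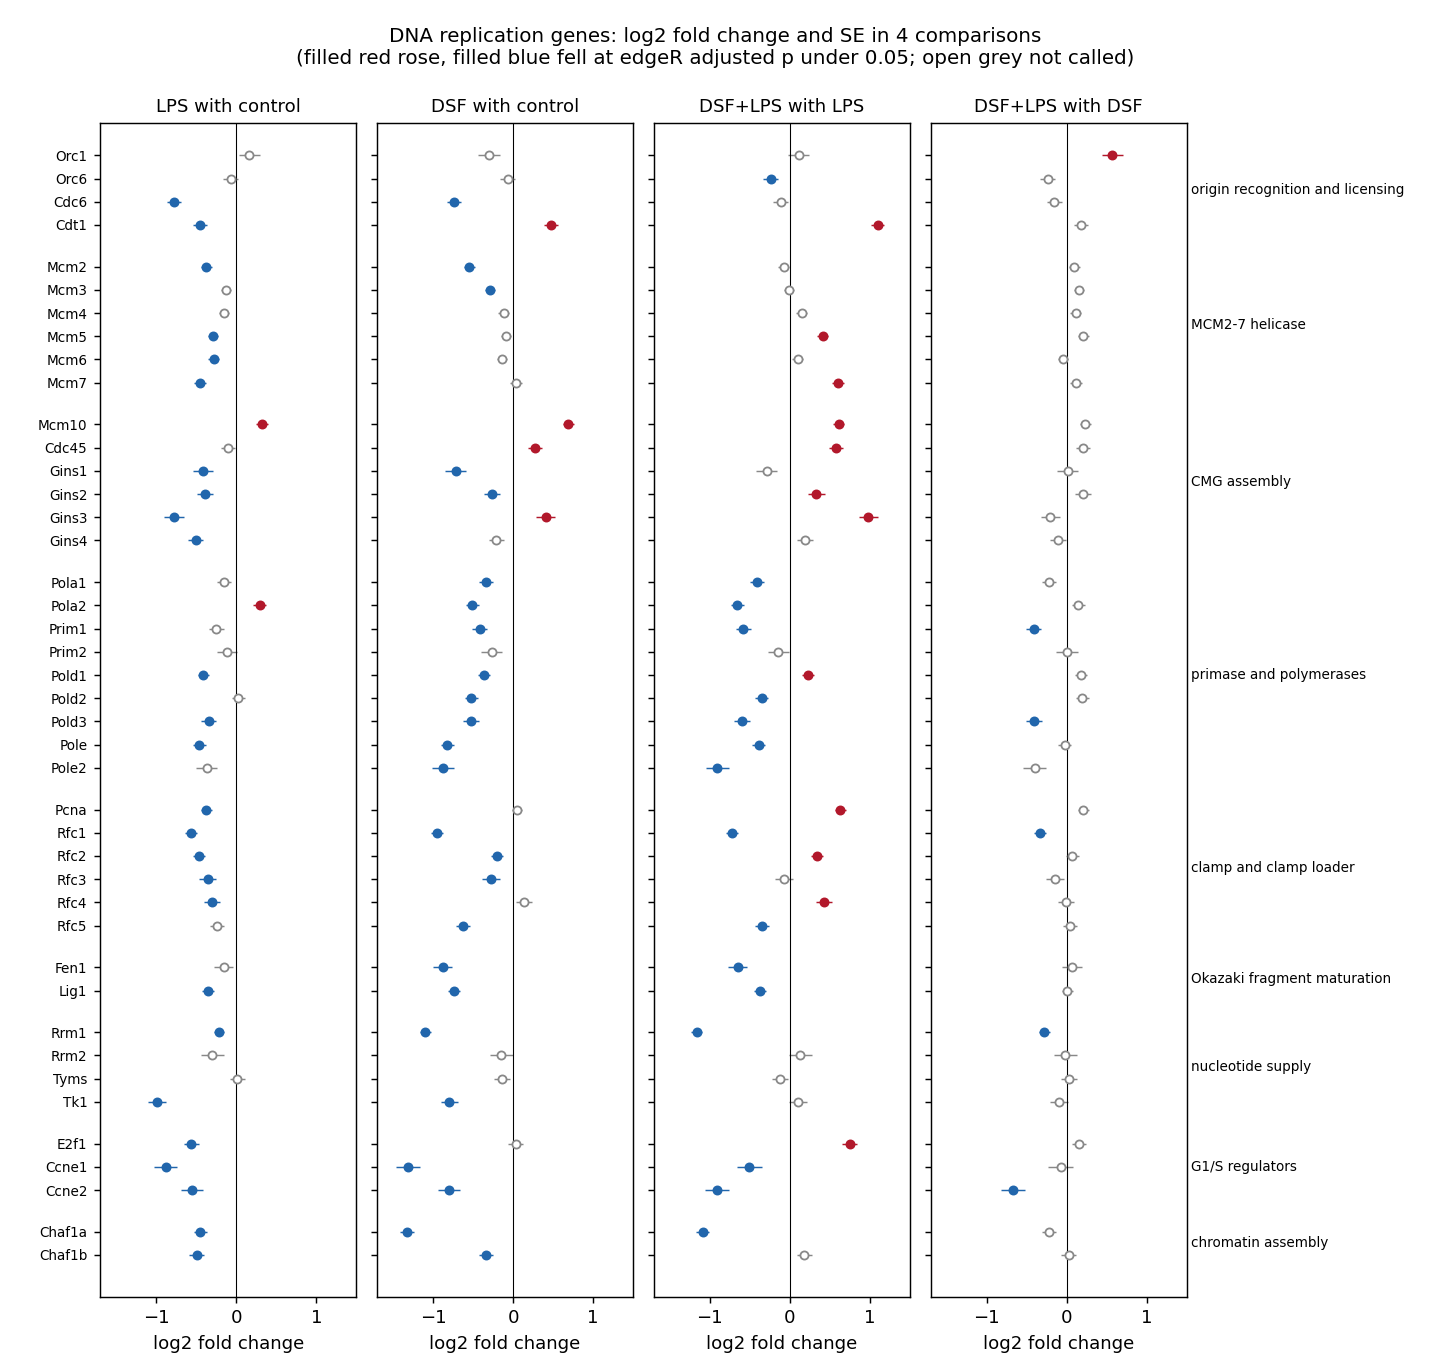
Log2 fold change (horizontal axis) of the 42 replication genes, ordered by role, for LPS and for DSF against control and for DSF+LPS against each agent alone; bars are the SE of the fit, and filled points were called (red rose, blue fell). With LPS alone all called genes but Mcm10 and Pola2 lie below 0, and with DSF the values reach from −1.32 to 0.69.

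Among the licensing genes, Cdc6 and Cdt1 parted ways. Cdc6, the ATPase that recruits Cdt1 and the MCM ring to origins, stood at 57.0 and 54.4 CPM in control, 33.0 and 33.8 after DSF, 32.7 and 32.5 after LPS and 30.3 and 29.8 after both. All 6 treated libraries lay well below the controls and close to one another. Cdc6 fell with LPS (−0.77, SE 0.088, adjusted p = 6.71e-06) and with DSF (−0.74, SE 0.087, adjusted p = 5.08e-06), while DSF+LPS differed from DSF by −0.15 (adjusted p = 0.303). Cdt1, which brings the MCM ring to the origin, stood at 192 and 195 CPM in control, 145 and 139 after LPS, 269 and 268 after DSF and 271 and 335 after both. The LPS libraries were lowest, the controls next, and the 4 libraries with DSF highest, without overlap. Cdt1 fell with LPS (−0.45, SE 0.086, adjusted p = 0.000979), rose with DSF (0.47, SE 0.085, adjusted p = 0.000265), and was 2.14-fold higher in DSF+LPS than in LPS, the largest rise of the 42 genes in that comparison (1.09, SE 0.086, adjusted p = 4.8e-08). Orc1, the largest subunit of the origin recognition complex, stood at 22.2 and 21.6 CPM in control, 17.0 and 18.6 after DSF, 24.6 and 24.3 after LPS and 30.3 and 22.5 after both. The DSF libraries were lowest, and one of the DSF+LPS libraries lay below both LPS libraries. It was not called against control in either case, but was the 1 gene of the 42 that rose from DSF to DSF+LPS (0.57, SE 0.13, adjusted p = 0.0143). That call was lost without DSF replicate 1 or DSF+LPS replicate 1, with log2 values from 0.34 to 0.80 over the 4 fits. Orc6, another subunit, ran from 35.2 to 48.2 CPM over all libraries and fell from LPS to DSF+LPS (−0.24, adjusted p = 0.0387). That value was −0.36 without DSF+LPS replicate 1 and −0.10 without DSF+LPS replicate 2, and the call was also lost without either LPS library (adjusted p up to 0.374).

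The 6 subunits of the MCM2-7 ring, which unwinds DNA at the fork, differed in their calls. Mcm2 showed the largest response to DSF: its level was 310 and 315 CPM in control, 218 and 210 after DSF, 251 and 232 after LPS and 229 and 228 after both. All treated libraries lay below the controls. Mcm2 fell with DSF (−0.54, SE 0.066, adjusted p = 6.03e-06) and with LPS (−0.37, SE 0.066, adjusted p = 0.000478). Mcm3 stood at 315 and 317 CPM in control, 251 and 265 after DSF, 292 and 287 after LPS and 286 and 287 after both, and fell with DSF (−0.29, SE 0.062, adjusted p = 0.000987), whereas its difference with LPS was −0.13 (adjusted p = 0.148). Mcm7 showed another order, with 192 and 181 CPM in control, 183 and 199 after DSF, 140 and 133 after LPS and 216 and 197 after both. Its LPS libraries were lowest, and its libraries with both agents overlapped those with DSF. Mcm7 fell with LPS (−0.45, SE 0.076, adjusted p = 0.00031) and rose from LPS to DSF+LPS (0.60, SE 0.076, adjusted p = 6.89e-06), but differed by only 0.035 between DSF and control (adjusted p = 0.711), a value whose sign turned under 4 other settings. Mcm5 was lowest with LPS and highest with both agents, with 342 and 346 CPM in control, 311 and 335 after DSF, 292 and 269 after LPS and 377 and 369 after both. It rose from LPS to DSF+LPS (0.41, SE 0.067, adjusted p = 8.4e-05). Its fall with LPS (−0.29, SE 0.067, adjusted p = 0.00383) lost its call without LPS replicate 2 (adjusted p = 0.0716). Mcm6 ran from 286 to 362 CPM and fell with LPS (−0.28), a call lost without control replicate 2 (adjusted p = 0.0656), and Mcm4 ran from 156 to 180 CPM with no call in any comparison.

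The 6 genes that turn the ring into an active helicase held 3 of the 4 rises with DSF and 4 of the 12 from LPS to DSF+LPS. Among all genes tested, 31% rose with DSF and 33.7% from LPS to DSF+LPS. Mcm10, which is needed to start unwinding, stood at 106 and 107 CPM in control, 168 and 175 after DSF, 135 and 130 after LPS and 213 and 191 after both. Every treated library was above both controls. It rose with DSF (0.69, SE 0.074, adjusted p = 1.73e-06) and from LPS to DSF+LPS (0.61, SE 0.073, adjusted p = 4.33e-06), and with LPS alone by 0.32, the call of which is described above as lost in 1 fit. Gins3, a GINS subunit, stood at 21.2 and 21.8 CPM in control, 31.1 and 25.8 after DSF, 12.4 and 12.7 after LPS and 24.0 and 25.5 after both. The LPS libraries were lowest, at a fold of 0.583 to control, and all libraries with DSF were above control. Gins3 fell with LPS (−0.78, SE 0.12, adjusted p = 0.000174) and rose from LPS to DSF+LPS (0.98, SE 0.12, adjusted p = 6.04e-06). Its rise with DSF alone (0.41, SE 0.12, adjusted p = 0.00742) was 0.25 and not called without DSF replicate 1, and was not called without control replicate 1 (adjusted p up to 0.127). Gins1, from the same complex, went the other way with DSF: 28.2 and 32.8 CPM in control, 17.0 and 20.2 after DSF, 23.9 and 21.9 after LPS and 20.3 and 17.1 after both. Gins1 fell with DSF (−0.72, SE 0.13, adjusted p = 0.000253). Its fall with LPS (−0.42) lost its call without control replicate 2 or either LPS library (adjusted p up to 0.232). Cdc45, which joins MCM2-7 and GINS in the active helicase, rose from LPS to DSF+LPS (0.57, SE 0.088, adjusted p = 4.7e-05) and with DSF (0.27), the second call being lost without either control library or DSF replicate 2 (adjusted p up to 0.105). Gins4 fell with LPS (−0.51, SE 0.098, adjusted p = 0.00103) and was not called with DSF.

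Of the 9 primase and polymerase genes, 8 fell with DSF, while 27.1% of all genes tested fell. Pole, the catalytic subunit of polymerase epsilon, which copies the leading strand, stood at 103 and 107 CPM in control, 55.6 and 62.7 after DSF, 75.3 and 77.0 after LPS and 57.9 and 58.3 after both. The treated libraries were all below control, and the LPS libraries were above those with DSF. Pole fell with DSF (−0.82, SE 0.081, adjusted p = 7.41e-07) and with LPS (−0.46, SE 0.080, adjusted p = 0.000432). Pole2, the subunit that partners it, stood at 19.2 and 18.5 CPM in control, 11.2 and 9.35 after DSF, 14.0 and 15.2 after LPS and 7.47 and 8.13 after both, and fell with DSF (−0.87, SE 0.14, adjusted p = 7.19e-05) and from LPS to DSF+LPS (−0.91, SE 0.14, adjusted p = 6.45e-05). The groups did not overlap, with both agents lowest. Pola2, a subunit of polymerase alpha, was 77.0 and 73.1 CPM in control, 53.1 and 52.3 after DSF, 95.0 and 88.6 after LPS and 59.4 and 57.1 after both. LPS libraries were highest and the 4 with DSF lowest. Pola2 fell with DSF (−0.51, SE 0.080, adjusted p = 7.11e-05) and from LPS to DSF+LPS (−0.66, SE 0.079, adjusted p = 4.55e-06). Pold1, the catalytic subunit of polymerase delta, stood at 171 and 164 CPM in control, 125 and 135 after DSF, 128 and 124 after LPS and 145 and 149 after both. Pold1 fell with LPS (−0.41, SE 0.070, adjusted p = 0.000377) and with DSF (−0.36, SE 0.070, adjusted p = 0.000447), and its libraries with both agents lay between control and either agent alone. Prim2, the large primase subunit, stood at 25.5 and 29.9 CPM in control, 21.9 and 24.3 after DSF, 24.9 and 26.2 after LPS and 26.0 and 20.1 after both. Its DSF libraries lay below control, the groups of the other 3 comparisons overlapped, and it was not called in any comparison. Pola1, Prim1, Pold2 and Pold3 fell with DSF by log2 values from −0.53 to −0.34 and fell from LPS to DSF+LPS as well. Of these 4, only Pold3 fell with LPS alone (−0.34), and that call was lost in each of the 4 fits without 1 library (adjusted p up to 0.0861).

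Of the clamp and its loader, 4 of 6 genes fell with DSF, and from LPS to DSF+LPS 3 rose and 2 fell. Among all genes tested, 27.1% fell with DSF, and 33.7% rose and 31.6% fell from LPS to DSF+LPS. PCNA forms the ring that slides behind the fork; Pcna stood at 221 and 209 CPM in control, 222 and 223 after DSF, 171 and 162 after LPS and 263 and 252 after both. LPS libraries were lowest, libraries with both agents highest, and DSF libraries just above control. Pcna fell with LPS (−0.37, SE 0.067, adjusted p = 0.000571) and rose from LPS to DSF+LPS (0.63, SE 0.067, adjusted p = 1.21e-06), while DSF differed from control by 0.048 (adjusted p = 0.56), or −0.055 when scaled by library size alone. Rfc1, the large subunit of the loader that opens the PCNA ring, was below control in every treated library. It stood at 150 and 163 CPM in control, 83.0 and 78.9 after DSF, 109 and 103 after LPS and 63.8 and 64.6 after both. The 4 groups did not overlap. Its fold was 0.678 with LPS (−0.56, SE 0.075, adjusted p = 3.86e-05) and 0.517 with DSF (−0.95, SE 0.076, adjusted p = 8.78e-08). Rfc5 stood at 100 and 90.3 CPM in control, 60.5 and 62.7 after DSF, 80.0 and 81.8 after LPS and 67.9 and 58.7 after both, and fell with DSF (−0.63, SE 0.089, adjusted p = 2.76e-05) and from LPS to DSF+LPS (−0.35, SE 0.089, adjusted p = 0.00297), a value of −0.22 without DSF+LPS replicate 2. Rfc4 was 35.9 and 34.2 CPM in control, 35.9 and 41.3 after DSF, 27.6 and 29.3 after LPS and 39.7 and 36.8 after both. It rose from LPS to DSF+LPS (0.43, SE 0.10, adjusted p = 0.00196) and was not called with DSF. Its fall with LPS (−0.30, adjusted p = 0.0381) was lost in each of the 4 fits without 1 library (up to 0.21) and in DESeq2 (0.068). Rfc2 fell with LPS (−0.47, SE 0.078, adjusted p = 0.000307) and rose from LPS to DSF+LPS (0.34, SE 0.078, adjusted p = 0.00162). Rfc3 fell with LPS (−0.36) and with DSF (−0.28), and both calls were lost in 3 of 4 fits without 1 library: control replicate 1 and either treated library (adjusted p up to 0.228 and 0.303).

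Both lagging-strand enzymes fell with the drug. Among all genes tested, 27.1% fell with DSF and 31.6% from LPS to DSF+LPS. Fen1, the nuclease that trims the flap of each fragment, stood at 26.7 and 26.2 CPM in control, 14.7 and 14.1 after DSF, 23.0 and 24.5 after LPS and 13.8 and 16.4 after both. The 4 libraries with DSF lay below all 4 without it. Fen1 fell with DSF (−0.88, SE 0.12, adjusted p = 1.91e-05) and from LPS to DSF+LPS (−0.65, SE 0.12, adjusted p = 0.000239). Lig1, the ligase that seals the nick, stood at 160 and 163 CPM in control, 98.7 and 95.0 after DSF, 131 and 122 after LPS and 100 and 94.7 after both. LPS libraries were between control and the libraries with DSF. Lig1 fell with LPS (−0.36, SE 0.072, adjusted p = 0.00155), with DSF (−0.74, SE 0.073, adjusted p = 7.47e-07) and from LPS to DSF+LPS (−0.38, SE 0.073, adjusted p = 0.000395).

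The subunits of ribonucleotide reductase, which makes deoxyribonucleotides, differed in their calls. Rrm1, the large subunit, stood at 349 and 358 CPM in control, 168 and 163 after DSF, 309 and 302 after LPS and 140 and 132 after both. The 4 libraries with DSF lay far below the 4 without it. It fell to 0.468 of control with DSF (−1.10, SE 0.066, adjusted p = 3.96e-09) and to 0.447 of LPS with both agents (−1.16, SE 0.066, adjusted p = 1.36e-09), the deepest fall of the 42 genes there. Its fall with LPS (−0.21) was lost in each of the 4 fits without 1 library (adjusted p up to 0.152). Rrm2, the small subunit, stood at 105 and 109 CPM in control, 84.7 and 109 after DSF, 82.5 and 91.9 after LPS and 113 and 77.4 after both. Replicates of the drug-treated groups lay far apart, and it was not called. Tk1, the thymidine kinase of dividing cells, stood at 82.2 and 77.7 CPM in control, 47.8 and 44.4 after DSF, 43.3 and 37.3 after LPS and 48.0 and 38.2 after both. All treated libraries were far below control, and those with both agents overlapped those with either alone. Tk1 fell with LPS (−0.99, SE 0.11, adjusted p = 5.69e-06) and with DSF (−0.79, SE 0.11, adjusted p = 2.18e-05). Tyms, thymidylate synthase, stood at 57.6 and 54.1 CPM in control, 47.0 and 54.7 after DSF, 57.3 and 55.5 after LPS and 55.3 and 48.3 after both, without a call.

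All 3 genes listed for the switch from G1 to S phase fell with LPS, while 13.8% of all genes tested fell. E2f1, the E2F activator, stood at 75.6 and 66.5 CPM in control, 70.9 and 74.1 after DSF, 45.1 and 51.0 after LPS and 77.3 and 84.0 after both. LPS libraries were below all others and DSF+LPS libraries above all others. E2f1 fell with LPS (−0.56, SE 0.094, adjusted p = 0.000287) and rose from LPS to DSF+LPS (0.75, SE 0.094, adjusted p = 6.52e-06), while its difference with DSF alone was 0.030 (adjusted p = 0.799), a value below 0 under 4 other settings. Ccne1 (cyclin E1) stood at 74.4 and 74.3 CPM in control, 31.5 and 28.1 after DSF, 41.8 and 38.8 after LPS and 34.8 and 21.8 after both, all treated libraries being far below control. Ccne1 fell with DSF (−1.32, SE 0.15, adjusted p = 3.49e-06) and with LPS (−0.88, SE 0.15, adjusted p = 0.000303). Its replicates with both agents differed: the fall from LPS to DSF+LPS (−0.51, SE 0.15, adjusted p = 0.00965) was −0.89 without DSF+LPS replicate 1 and −0.18, not called, without DSF+LPS replicate 2, and was also lost without LPS replicate 1 (adjusted p up to 0.137). Ccne2 (cyclin E2) stood at 24.5 and 24.7 CPM in control, 15.8 and 12.4 after DSF, 16.0 and 17.5 after LPS and 8.07 and 9.71 after both. It was lowest with both agents, and fell with DSF (−0.80, SE 0.14, adjusted p = 0.000176) and from LPS to DSF+LPS (−0.91, SE 0.15, adjusted p = 8.41e-05). With LPS alone it fell by 0.56 on the log2 scale, a call lost without LPS replicate 1 or control replicate 2, where the adjusted p reached 0.0738.

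Chaf1a and Chaf1b code for subunits of CAF-1, which places histones on new DNA. Chaf1a stood at 114 and 112 CPM in control, 46.4 and 43.8 after DSF, 82.8 and 82.6 after LPS and 36.6 and 41.1 after both. The 4 libraries with DSF lay below the LPS libraries, and these below control. Chaf1a fell with DSF (−1.32, SE 0.083, adjusted p = 6.45e-09), with LPS (−0.45, SE 0.080, adjusted p = 0.000525) and from LPS to DSF+LPS (−1.09, SE 0.084, adjusted p = 3.89e-08). Chaf1b stood at 61.7 and 54.5 CPM in control, 47.4 and 44.3 after DSF, 41.6 and 40.9 after LPS and 48.2 and 45.1 after both. Chaf1b fell with LPS (−0.49, SE 0.092, adjusted p = 0.000762). Its fall with DSF (−0.34, SE 0.091, adjusted p = 0.00515) lost its call without control replicate 1 (adjusted p = 0.0827), and it was not called from LPS to DSF+LPS.

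**Figure D2:**
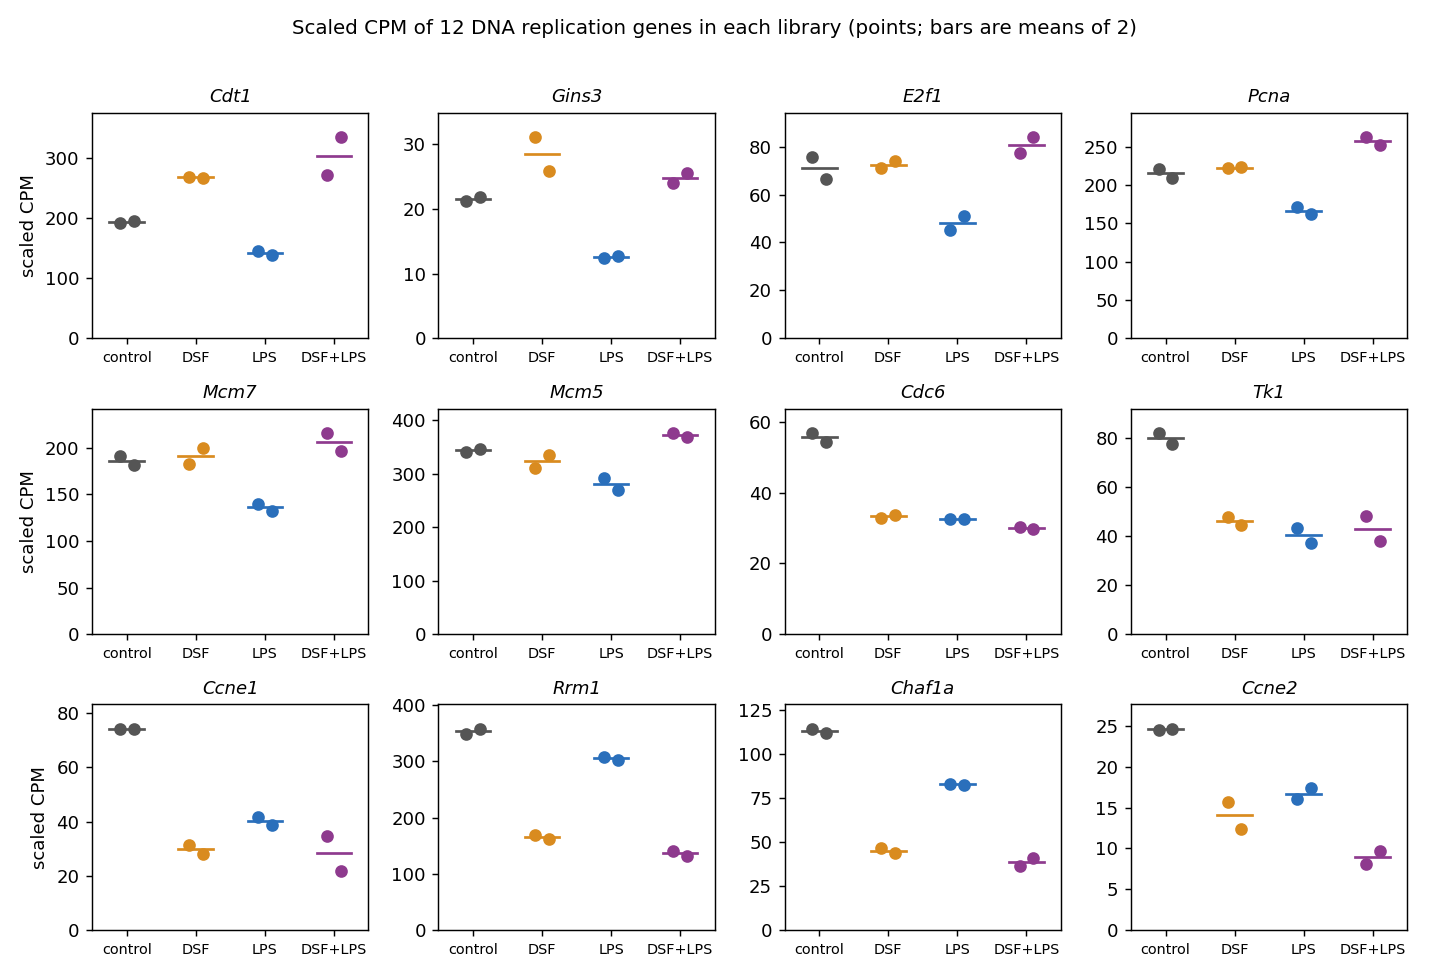
Scaled CPM (vertical axes, from 0) of 12 replication genes in each of the 8 libraries, by group; points are libraries and bars are group means. Mcm5, Pcna and E2f1 are lowest in the LPS libraries and highest in the DSF+LPS libraries, and Rrm1 and Chaf1a are low in all 4 libraries with DSF.

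In cells already given the drug, 14.3% of these genes and 12.1% of all genes tested were called with LPS. Without the drug the shares were 66.7% and 29%. From DSF to DSF+LPS, 1 of the 42 rose (Orc1) and 5 fell (Prim1, Pold3, Rfc1, Rrm1 and Ccne2), while 5.53% of all genes rose and 6.53% fell. The median log2 fold change was 0.01 over the 42 genes and −0.003 over all genes. For the 42 genes it was −0.057 without DSF+LPS replicate 1, 0.11 without DSF+LPS replicate 2 and −0.096 when scaled by library size alone. Ccne2 fell most (−0.67, SE 0.15, adjusted p = 0.0115), and the other 4 falls had log2 values from −0.41 to −0.28. Of the 26 genes that fell with LPS in cells without DSF, 4 fell in this comparison (of 5 here), and 22 were not called. The 2 comparisons share no library. How many of all genes did likewise was not counted. A missing call does not show that a gene was unmoved. Without DSF replicate 1, none of the 42 genes was called by edgeR (3 rose and 5 fell at an unadjusted p under 0.05), while DESeq2 on all libraries called 4 rises and 5 falls. Scaled by library size alone, 1 rose and 9 fell, and the share of all called genes that rose went from 45.8% to 17.5%.

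The interaction term tests the difference itself: the log2 response to LPS in cells with DSF minus that in cells without it. It was called positive in 17 of the 42 genes, while it was called positive in 7.58% and negative in 12.2% of all genes tested. This term reuses the control and LPS libraries behind the falls with LPS alone. A gene that happened to be low in the LPS libraries leans to a positive value. Over all genes tested, 29% were called with LPS without DSF and 12.1% with it. How many of all LPS-fallen genes had a positive term was not counted. The 17 are therefore not read as particular to these genes. Called or not, 33 of the 42 values were above 0 and 9 below, against 7898 above and 8406 below over all 16304 genes tested. No gene of the 42 was called negative by edgeR, none was negative at an unadjusted p under 0.05, and DESeq2 called 18 positive and none negative. The median was 0.28 over the 42 genes and −0.02 over all genes. Every role was represented, with 4 genes of the MCM2-7 ring and from 1 to 2 of each other role. Tk1 had the largest value (0.89, SE 0.16, adjusted p = 0.000895), its LPS response being −0.99 without the drug and −0.095 with it (adjusted p = 0.651 for the latter). Pcna had the smallest adjusted p (0.58, SE 0.095, adjusted p = 0.000483), with an LPS response of −0.37 without the drug and 0.21 with it (adjusted p = 0.0559). E2f1 went from −0.56 to 0.15 (interaction 0.72, SE 0.13, adjusted p = 0.00124). Among licensing genes, Cdc6 went from −0.77 to −0.15 and Cdt1 from −0.45 to 0.18. In the ring, Mcm5 went from −0.29 to 0.21 and Mcm7 from −0.45 to 0.11. Of the 17, 10 were called in each of the 8 fits without 1 library. The number called was 10 without LPS replicate 2, 11 without control replicate 1 and 24 without DSF+LPS replicate 2. The interaction of Ccne1 (0.81) was 0.44 without DSF+LPS replicate 1 and 1.15 without DSF+LPS replicate 2. For Rrm1, which fell with DSF whether or not LPS followed, the interaction was −0.068 (adjusted p = 0.682).

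**Figure D3:**
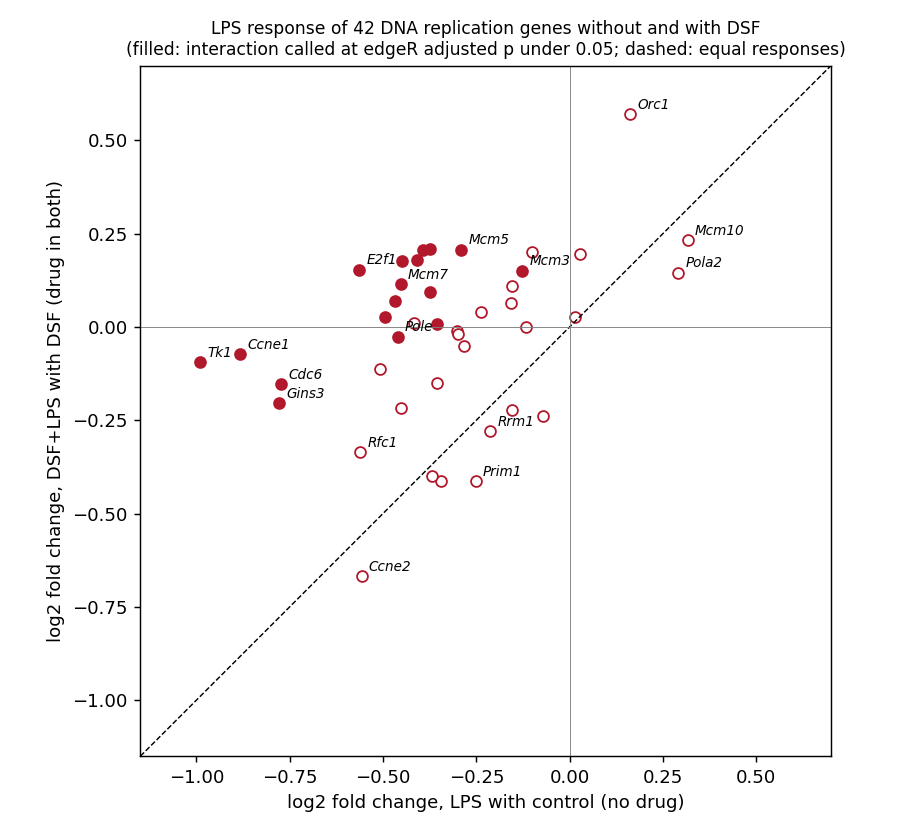
Log2 fold change of the 42 replication genes with LPS in cells without DSF (horizontal axis) and in cells with DSF (vertical axis); each point is a gene, and filled points have a called interaction. Height above the diagonal of equal response is the interaction value, so the 17 genes called positive lie above it by definition.

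Genes around this machinery were taken from 4 further lists, whose counts stand beside 13.8% of all genes fallen and 15.2% risen with LPS, and 27.1% and 31% with DSF. Of 37 other replication factors, 17 fell and 3 rose with LPS (median log2 −0.22), and 20 fell and 4 rose with DSF (−0.26). Gmnn, the inhibitor of Cdt1, fell most with LPS (−1.13, SE 0.11, adjusted p = 1.34e-06), followed by Wdhd1, a fork scaffold (−1.05, SE 0.13, adjusted p = 2.02e-05). With DSF, Dna2, a flap nuclease, fell most (−1.49, SE 0.13, adjusted p = 2.37e-07), followed by Wdhd1 (−1.35) and Tipin, a fork protection factor (−1.09). Pold4, the small subunit of polymerase delta, rose (1.02, SE 0.15, adjusted p = 4.75e-05), as did Mcm9, a helicase used in DNA repair (0.87, SE 0.12, adjusted p = 3.27e-05). Of 12 other nucleotide supply genes, 2 fell and 2 rose with LPS (16.7% each, near the shares of all genes), and 6 fell and 2 rose with DSF (50% and 16.7%). Dck, the kinase that salvages deoxycytidine (−1.21, SE 0.11, adjusted p = 4.76e-07), Samhd1, which breaks down deoxynucleotides (−1.19), and Cad, which starts pyrimidine synthesis (−1.06), fell with DSF.

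Of the 20 genes of the E2F and pocket protein network, 13 fell with LPS, with a median of −0.35, and 13 fell and 2 rose with DSF (median −0.44). Rbl2, a pocket protein that holds E2F targets off, fell with both LPS (−1.51, SE 0.14, adjusted p = 6.08e-07) and DSF (−1.30, SE 0.13, adjusted p = 1.24e-06). E2f2, an E2F activator, and Tfdp2, an E2F partner, fell with LPS (−1.47 and −1.26). Cdc25a, a phosphatase that activates the kinases of S phase, and Skp2, which marks cell cycle inhibitors for breakdown, fell with DSF (−1.20 and −1.13). Fbxw7, which marks cyclin E for breakdown, and Cdkn1a, which codes for the kinase inhibitor p21, rose with DSF (0.81, SE 0.11, adjusted p = 2.53e-05 and 0.46, SE 0.073, adjusted p = 9.27e-05). Of 14 replication checkpoint genes, 5 fell and 1 rose with LPS, and 8 fell and 5 rose with DSF. Wee1, a kinase that restrains entry into mitosis, fell with LPS (−0.65, SE 0.12, adjusted p = 0.000614). Atrip, the partner of the checkpoint kinase ATR, fell with DSF (−1.06, SE 0.14, adjusted p = 1.17e-05), and of the clamp subunits of the checkpoint Hus1 fell (−0.79) and Rad9a rose (0.90). From LPS to DSF+LPS, 17 of the 37 other replication factors fell and 11 rose, and 11 of the 20 network genes fell and 5 rose, while 31.6% of all genes fell and 33.7% rose.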

How the data were processed

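A single table deposited by the authors held raw whole-number counts per gene for the 8 libraries. Per the labels' protocols, RNA came from TRIzol extracts and a VAHTS mRNA kit. The submitters' processing notes name the genome build GRCm39 and DESeq2, without their role. Aligner, counter, annotation and strand handling were not given in the sources used here, so reads of overlapping or antisense genes cannot be told apart. Of 55414 identifiers, 52081 matched a symbol in a GENCODE M21 list. Groups follow the labels.

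Counts were tested with edgeR 4.0.16 (limma 3.58.1, R 4.3.3): quasi-likelihood test, 1 fit of 4 group means over 8 libraries, TMM scaling, filterByExpr defaults (minimum count 10, minimum total count 15), Benjamini-Hochberg adjustment over 16304 genes within each of 5 comparisons. SE was taken as the absolute log2 fold change over the root of the F statistic. CPM uses the scaled library sizes, except in the sums of cell type markers, which use library size alone. Scripts were tested on simulated data. The common biological coefficient of variation was 7.85%. The squared difference of replicates, relative to counting noise, averaged 3.61 per gene in control, 3.96 in LPS, 6.82 in DSF and 12.7 in DSF+LPS. The fit shares its spread among the groups, so SE and p of comparisons with DSF+LPS may be too small. Alternatives were library size alone, median-of-ratios (RLE) scaling, DESeq2 1.42.0, no filter, a stricter filter (50 counts in 2 libraries), a replicate block, only the groups compared, and leaving out each library.

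The members and the further gene lists were chosen with earlier results of these data known. All members may be named. Per-library values are given for the extremes of each role in the responses to DSF and LPS and for up to 8 genes of the interaction. From each further list, up to 3 called genes in each direction may be named, and some of these are not reported here. The promoter letters were searched in 1 RefSeq table without a test.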

Additional observations from a re-analysis of the deposited data

Results flagged for a closer look

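In 17 replication genes the response to LPS with the drug differed from that without it, by the interaction term of edgeR's quasi-likelihood test (adjusted p under 0.05). Each value is the log2 response to LPS with DSF minus that without DSF. Among licensing and ring genes it was 0.62 for both Cdc6 and Cdt1, 0.47 for Mcm2, 0.28 for Mcm3, 0.50 for Mcm5 and 0.57 for Mcm7. For the GINS subunits it was 0.60 for Gins2 and 0.57 for Gins3. For the polymerase genes it was 0.59 for Pold1 and 0.43 for Pole. The clamp gene Pcna had 0.58, the loader gene Rfc2 0.54 and the ligase gene Lig1 0.36. Tk1 had 0.89, E2f1 0.72, Ccne1 0.81 and Chaf1b 0.52.

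Leaving out 1 library ended the call of 7 of the 17. Mcm3 (adjusted p up to 0.136) and Gins3 (0.0957) lost it in 5 of 8 such fits, and Pole (0.0709), Lig1 (0.125) and Ccne1 (0.0776) in 4. Gins2 (0.0606) and Chaf1b (0.0781) lost it without control replicate 1 or LPS replicate 2. The other 10 genes kept theirs in all 8 fits.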

How the results depend on the processing

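With 2 libraries per group, leaving out 1 leaves a lone library assumed to vary like the other groups. Scaled by library size alone, no member rose with LPS, 9 fell from DSF to DSF+LPS, and the log2 differences of DSF with control became −0.068 for Mcm7, −0.055 for Pcna and −0.073 for E2f1. From DSF to DSF+LPS, members risen numbered 4 with RLE scaling, 4 with DESeq2, 3 without a filter, 4 with the stricter filter and 2 with the replicate block, and with only the groups compared 0 rose and 0 fell (4 and 5 at an unadjusted p under 0.05 in edgeR). Leaving out 1 library gave from 0 to 2 risen with LPS, 2 to 3 with DSF (2 without control replicate 1), and from DSF to DSF+LPS 0 to 6 risen and 0 to 7 fallen. The interaction was called in 10 to 24. For DSF with control, Mcm7 was −0.00135 and E2f1 −0.00632 without a filter, and leaving out 1 library gave −0.029 to 0.082 for Mcm7 and −0.060 to 0.12 for E2f1. Likewise Tk1 ran from −0.27 to 0.089 from DSF to DSF+LPS and the interaction of Rrm1 from −0.097 to 0.023, both positive only without DSF+LPS replicate 2. The causes were not tested. The promoter share was 61.5% with 7 of the letters (all promoters 9.57%). Replicate numbers pair no samples by the labels; with the replicate block members risen and fallen were 2 and 26 with LPS, 4 and 25 with DSF, 12 and 16 from LPS to DSF+LPS, 2 and 5 from DSF to DSF+LPS, and 17 and 0 for the interaction, as without it but for 1 more rise. Correlations of same-numbered deviations between groups ran from −0.119 to 0.0531.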

Other observations

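The promoter letters divided the 34 genes with a RefSeq entry into 14 with them and 20 without. With LPS alone, 10 of the 14 fell and 10 of the 20, while 13.8% of all genes tested fell. With DSF alone, 8 of the 14 and 12 of the 20 fell, while 27.1% of all genes tested fell. From LPS to DSF+LPS, 5 of the 14 rose and 4 fell, and of the 20 without the letters 5 rose and 10 fell. Among all genes tested, 33.7% rose and 31.6% fell in that comparison. The interaction was called positive in 8 of the 14 (median log2 0.39 over the 14) and in 6 of the 20 (median 0.26 over the 20). The difference between these sets was not tested.

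The interaction was called positive in 7.58% and negative in 12.2% of all genes tested. In the further lists it was called positive in 8 and negative in 5 of the 37 other replication factors, positive in 5 and negative in 1 of the 20 genes of the E2F and pocket protein network, and positive in 1 and negative in 2 of the 14 replication checkpoint genes. Both of the genes called among the 12 other nucleotide supply genes were negative.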
